A study of Mus musculus with 3 samples.

Results

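The genes described here encode the machinery of cell division: the cyclins and kinases that start mitosis, the checkpoint that holds it, and the spindle, kinetochore and cytokinesis proteins that carry it out. They were chosen by name, as a list of 36 gene symbols drawn up with earlier results of these arrays known; no cutoff on their values was applied. Of the 36 genes, 33 had a probe set of their own, among 18820 genes measured in all. Ccnb1 had no probe set in the annotation used here. Foxm1 and Kif20a were present only on probe sets assigned to more than 1 gene, and none of the 3 genes was given a value. All 33 measured genes passed the filter on low values, which kept 9410 genes.

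The cells were RAW264.7, a mouse macrophage line that divides continuously in culture. They received 500 µM palmitate, elaidate or oleate for 6 hours, each bound to albumin at 2 fatty acid molecules per albumin. Palmitate is a saturated fatty acid, elaidate a trans monounsaturated one and oleate its cis isomer. Each fatty acid gave 1 array, 3 arrays in all, so every difference below is between single arrays with no replicate check and no p-value. There is no array of cells without added fatty acid, so the values show nothing of a response relative to none. The macrophage markers Cd68, at 11.77 on all 3 arrays, and Csf1r, at 10.70 on the palmitate, 11.05 on the elaidate and 11.16 on the oleate array, were present in log2 values. Of 14 measured fibroblast, epithelial, lymphocyte and endothelial markers the highest value was 4.54, for Krt8 on the palmitate array.

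Mitosis is entered when Cdk1, bound to cyclin A or B, is freed of inhibitory phosphates by Cdc25 phosphatases, while Polo-like and Aurora kinases build the spindle. The spindle assembly checkpoint keeps the anaphase-promoting complex off until every kinetochore holds microtubules. The chromosomal passenger complex, with Aurora B as its kinase, corrects wrong attachments and later moves to the midzone for cytokinesis. Transcripts of most of these genes accumulate late in the cell cycle, under the MuvB complex with B-Myb and FOXM1, and are repressed in resting cells. The arrays measured RNA of whole cultures, in which fewer cells in G2 and mitosis and less of a transcript per cell cannot be told apart.

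Promoters of the set were read first, because genes of late cell cycle are known for a shared element, the cell cycle genes homology region (CHR), bound by MuvB, next to CCAAT boxes bound by NF-Y. Windows of 250 bases before and 50 bases after the gene start, from RefSeq on build GRCm38.p6, were at hand for 29 of the 36 genes. The letters TTTGAA, searched on both strands, occurred in 21 of the 29 (72.4%), against 20.2% of 27025 genes with a window. CCAAT, searched likewise, occurred in 22 of 29 (75.9%), against 41.1% of all genes. Both occurred in 18 of 29 (62.1%), against 7.97%. In Cdca8 a TTTGAA match that begins at position 14 after the start ends on the base where a CCAAT match begins, at 19. In the 250 bases before the start alone, TTTGAA occurred in 11 of 29 (37.9%), against 18.3% of all genes, and both motifs in 10 of 29 (34.5%), against 6.45%. CCAAT still occurred in 22 of 29, against 37.5%. A match describes letters in a window and does not show that a factor binds there. The 150 bases before the start are printed for Ect2, Cdk1, Kif2c and Espl1, the genes with the lowest palmitate minus oleate difference among those with TTTGAA in that stretch. Capitals mark TTTGAA and CCAAT or their reverse complements. The stretches are chr3:27153879-27154028 on the reverse strand, chr10:69352913-69353062 on the reverse strand, chr4:117178773-117178922 on the reverse strand and chr15:102296143-102296292 on the forward strand.
Ect2: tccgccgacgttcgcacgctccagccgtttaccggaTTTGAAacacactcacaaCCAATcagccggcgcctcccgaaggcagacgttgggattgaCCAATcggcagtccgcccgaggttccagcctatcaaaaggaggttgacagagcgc
Cdk1: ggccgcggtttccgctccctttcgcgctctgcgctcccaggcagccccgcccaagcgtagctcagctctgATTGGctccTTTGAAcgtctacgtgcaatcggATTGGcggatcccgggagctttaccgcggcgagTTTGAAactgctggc
Kif2c: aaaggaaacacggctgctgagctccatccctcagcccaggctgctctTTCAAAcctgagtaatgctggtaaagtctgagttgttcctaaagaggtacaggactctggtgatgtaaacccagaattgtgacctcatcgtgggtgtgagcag
Espl1: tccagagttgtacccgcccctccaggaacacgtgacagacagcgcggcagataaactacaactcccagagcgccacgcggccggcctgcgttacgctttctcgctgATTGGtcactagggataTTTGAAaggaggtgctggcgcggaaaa
Counting the start as position 1, with no position 0, the TTTGAA matches shown begin at -114 in Ect2, at -71 and -15 in Cdk1, at -103 in Kif2c and at -27 in Espl1. The window of Cdk1 has a CCAAT match before each of the 2, whereas the stretch of Kif2c has none. In Plk1 and Aurka the match lay after the start, at positions 31 and 33, and only those sites are printed, chr7:122159456-122159479 on the forward strand and chr2:172370524-172370547 on the reverse strand.
Plk1: agcgccgcgTTTGAAttcggggag
Aurka: aggagaaccTTTGAAttgtaacgg
In 19 of the 21 genes with TTTGAA a match began within 50 bases of the start, as the map of motif positions shows. The window ends 50 bases after the start, so every match after the start counts here. The same share was not computed over all genes with TTTGAA, so this count is not shown to be a trait of the set.

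**Figure D1:**
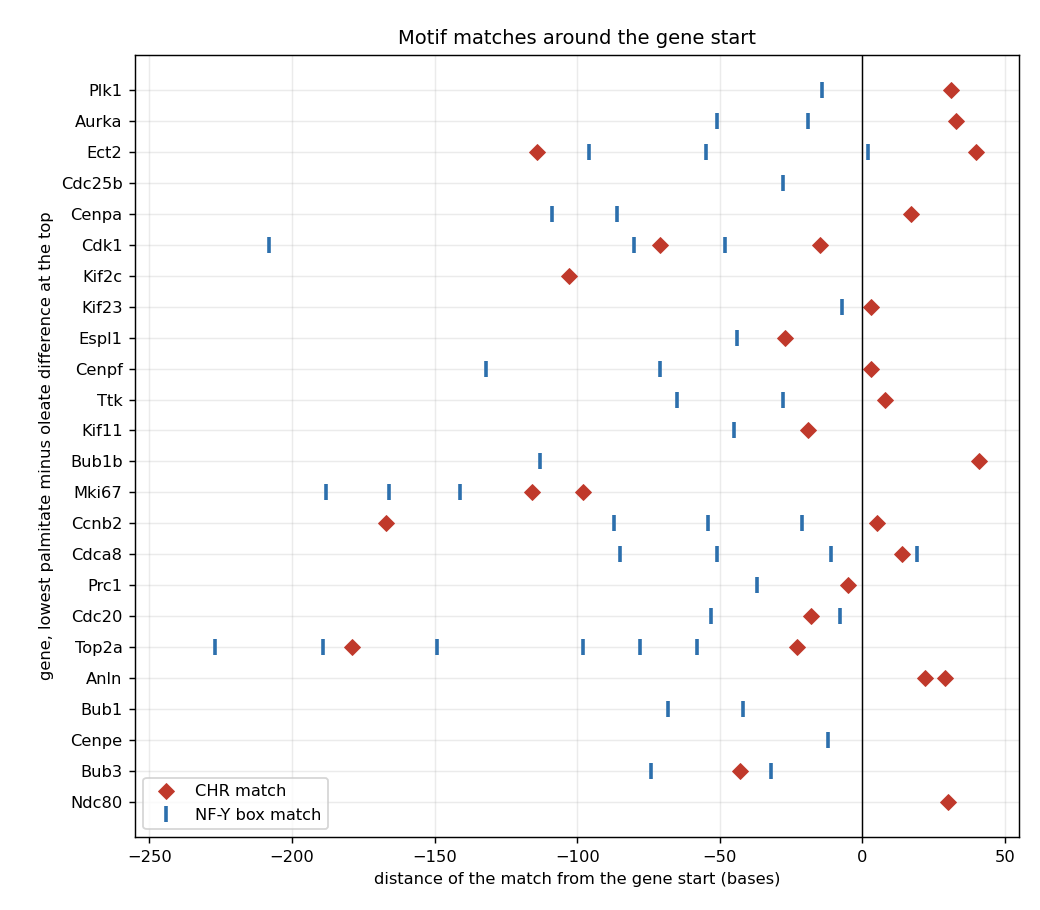
Distance in bases of TTTGAA matches (CHR, diamonds) and CCAAT matches (NF-Y box, ticks) from the gene start, for members with a value and at least 1 match, ordered from the lowest palmitate minus oleate difference at the top to the highest. Matches to the CHR letters lie within 50 bases of the start in 19 genes. The window ends 50 bases after the start, and no share over all genes was computed.

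Compared with oleate, the palmitate array gave lower values for most of the set, by small amounts. Of the 33 genes 25 were lower, 4 were equal and 4 were higher, and the median log2 difference was -0.09. Of all 9410 genes 36.8% were lower, 32.3% equal and 30.9% higher, and the median was 0. The differences ran from -0.67 for Aurkb to 0.03 for Ndc80. The 10 genes at least 1.2-fold lower on the palmitate array were Aurkb, Plk1, Aurka, Ect2, Cdc25b, Cenpa, Cdk1, Ccna2, Kif2c and Kif23, whereas 14.2% of all genes were that much lower. Aurkb alone was at least 1.5-fold lower, 1 of 33 genes, where 4.73% of all genes were. None was 2-fold lower, against 1.22% of all genes. The standard deviation of this difference over all genes was 0.38, and 5 members lay lower than that, against 9.63% of all genes. The differences of the set thus lay mostly on 1 side and were mostly small. With each array centred on its median, 33 of 33 members were lower, beside 74.3% of all genes, because the palmitate array has the higher median. The 4 equal genes then count as lower, and the 4 higher ones, Plk4, Bub3, Cenpe and Ndc80, change sign, to between -0.03 and -0.01.

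**Figure D2:**
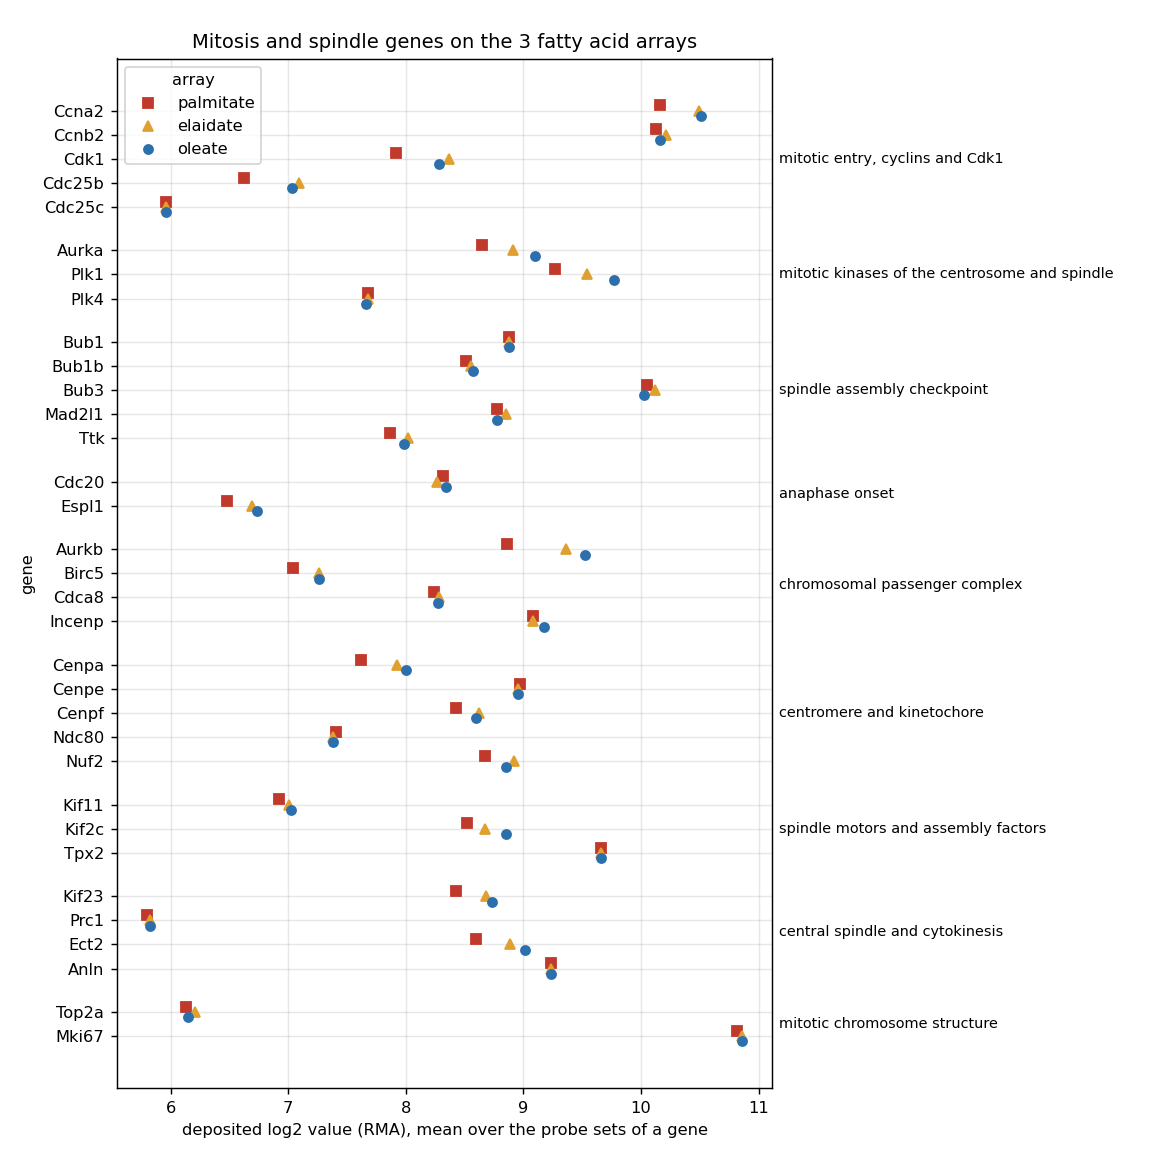
Deposited log2 value of each of the 33 genes on the palmitate (squares), elaidate (triangles) and oleate (circles) arrays, 1 array each, grouped by role from top to bottom. The palmitate square is the leftmost of the 3 for 23 genes, among them Aurkb at 8.86; values of different genes come from different probes and are not comparable along the axis.

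The palmitate array held the lowest of the 3 values for 23 of the 33 genes, against 32.7% of all genes. The order oleate above elaidate above palmitate was found for 11 members, against 13.7% of all genes. Bub1, Tpx2, Anln and Cdc25c had the same value on all 3 arrays to within 1e-06, as did 27.5% of all genes. Such ties are frequent in the deposited values, from 32.3% to 44.1% of all genes per pair of arrays. A tie is therefore not read here as a transcript that did not differ. The origin of the ties was not tested.

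Of 5 measured genes of mitotic entry 4 had a palmitate value below the oleate value, beside 36.8% of all genes. Their median was -0.35. Cdk1, the kinase that drives entry, had log2 values of 7.92 on the palmitate, 8.37 on the elaidate and 8.28 on the oleate array. The palmitate value was the low one, 1.29-fold below oleate, with a difference of -0.36. Ccna2, which encodes cyclin A2, stood at 10.16 on the palmitate, 10.50 on the elaidate and 10.51 on the oleate array, a difference of -0.35 between palmitate and oleate. Cdc25b, a phosphatase that activates Cdk1, stood at 6.62 on the palmitate, 7.09 on the elaidate and 7.03 on the oleate array. For all 3 genes the elaidate and oleate arrays lay within 0.09 of each other and palmitate lay apart. The other cyclin measured, Ccnb2, a partner of Cdk1, differed little, at 10.13 on the palmitate, 10.21 on the elaidate and 10.16 on the oleate array. Cdc25c, a second phosphatase of Cdk1, was equal on the arrays at 5.96.

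The differences furthest from 0 between palmitate and oleate were those of the Aurora and Polo kinases. Aurkb, the kinase of the chromosomal passenger complex, had values of 8.86 on the palmitate, 9.36 on the elaidate and 9.52 on the oleate array. Its palmitate value was 1.59-fold below its oleate value, a log2 difference of -0.67, and 3.5% of all genes had a lower one. Plk1, which acts at centrosomes, kinetochores and the midzone, stood at 9.27 on the palmitate, 9.54 on the elaidate and 9.77 on the oleate array, a palmitate minus oleate difference of -0.50. Aurka, the centrosome and spindle pole kinase, stood at 8.64 on the palmitate, 8.91 on the elaidate and 9.09 on the oleate array, a difference of -0.45. All 3 kinases followed the order oleate, elaidate, palmitate from high to low. Plk4, the Polo-like kinase of centriole duplication, did not, at 7.68 on the palmitate, 7.68 on the elaidate and 7.66 on the oleate array.

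The partners of Aurora B in its complex differed less than the kinase. Birc5, which encodes survivin, was 7.04 on the palmitate and 7.27 on both the elaidate and the oleate array, a difference of -0.22 from either. Incenp, the scaffold, was 9.08 on the palmitate, 9.08 on the elaidate and 9.18 on the oleate array. Cdca8, which encodes borealin, was 8.24 on the palmitate, 8.29 on the elaidate and 8.27 on the oleate array. All 4 genes of the complex had palmitate values below oleate, beside 36.8% of all genes. Their differences ran from -0.67 for the kinase to -0.03 for borealin. Incenp and Cdca8 were not unusual, as 25.9% and 32.0% of all genes had lower differences than they did.

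Checkpoint genes hardly differed between the palmitate and oleate arrays. Their differences ran from -0.12 for Ttk, the kinase that starts checkpoint signalling, to 0.02 for Bub3, a kinetochore adaptor. Bub3 stood at 10.05 on the palmitate, 10.12 on the elaidate and 10.03 on the oleate array. Ttk stood at 7.87 on the palmitate, 8.02 on the elaidate and 7.98 on the oleate array. Bub1b, a kinetochore-bound inhibitor of the anaphase-promoting complex, stood at 8.51 on the palmitate, 8.55 on the elaidate and 8.57 on the oleate array. The kinase gene Bub1 was equal at 8.88 on all 3 arrays. Mad2l1, which encodes the checkpoint protein Mad2, had 2 probe sets and a mean of 8.77 on the palmitate, 8.86 on the elaidate and 8.77 on the oleate array. Its brighter probe set alone gave -0.17 for palmitate minus elaidate and 0.16 for elaidate minus oleate. The other was tied at 7.98 on the arrays. None of the 5 was 1.2-fold apart in any comparison. Of the genes that act at anaphase, Cdc20, the activator that the checkpoint restrains, was 8.31 on the palmitate, 8.26 on the elaidate and 8.34 on the oleate array. Espl1, which encodes the cohesin-cutting protease separase, was lower at 6.48 on the palmitate, against 6.70 on the elaidate and 6.74 on the oleate array.

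Centromere and kinetochore genes ranged from lower on the palmitate array to nearly level. Cenpa, the histone H3 variant that marks centromeres, stood at 7.62 on the palmitate, 7.92 on the elaidate and 8.00 on the oleate array, a palmitate minus oleate difference of -0.38. Nuf2 and Ndc80 encode subunits of 1 microtubule-binding complex, and their differences were of unlike size. Nuf2 was 8.67 on the palmitate, 8.92 on the elaidate and 8.85 on the oleate array. Ndc80 was 7.41 on the palmitate and 7.38 on both other arrays. Its small palmitate minus oleate difference of 0.03 turned to -0.01 with arrays centred on their medians. Of the large kinetochore proteins, Cenpf was 8.43 on the palmitate, 8.63 on the elaidate and 8.60 on the oleate array, while the motor gene Cenpe lay between 8.96 and 8.97 on all 3.

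Among spindle motors, Kif2c, a kinesin that shortens microtubules, was lowest on the palmitate array. Its values were 8.52 on the palmitate, 8.67 on the elaidate and 8.85 on the oleate array, a palmitate minus oleate difference of -0.34. Kif11, the motor that pushes spindle poles apart, had a mean over 2 probe sets of 6.92 on the palmitate, 7.01 on the elaidate and 7.03 on the oleate array. That is a palmitate minus oleate difference of -0.10, and its brighter probe set alone gave -0.20. The 2 probe sets of Kif11 averaged 9.03 and 4.95 over the arrays. Tpx2, which activates Aurora A on the spindle, was equal on the arrays at 9.66. Of the genes of the midzone and cytokinesis, Ect2, which activates RhoA at the cleavage furrow, stood at 8.59 on the palmitate, 8.89 on the elaidate and 9.01 on the oleate array, a difference of -0.42. Kif23, the kinesin of centralspindlin, stood at 8.42 on the palmitate, 8.68 on the elaidate and 8.73 on the oleate array. Both were lower on the palmitate array. The furrow scaffold gene Anln had tied deposited values of 9.24. Prc1, which bundles midzone microtubules, was 5.80 on the palmitate and 5.83 on both other arrays as a mean of 2 probe sets. The difference was -0.03, and the brighter probe set gave -0.06. Over the arrays the probe sets of Prc1 averaged 8.81 and 2.82.

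The widely used proliferation marker Mki67 was nearly level, at 10.81 on the palmitate and 10.86 on both the elaidate and the oleate array. Top2a, the topoisomerase that untangles sister chromosomes, depended on the probe set. Its mean over 3 probe sets was 6.13 on the palmitate, 6.21 on the elaidate and 6.14 on the oleate array, a palmitate minus oleate difference of -0.01. The brightest of them, with a mean of 9.79 over the arrays, gave -0.32. Another, at 6.63, gave 0.28, and the dimmest, at 2.06, gave 0. Which probe set reports the transcript was not tested, so Top2a has no settled direction. By its mean it is counted among the 25 genes lower than oleate, the 23 with the lowest value on the palmitate array and the 18 lower genes with TTTGAA.

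**Figure D3:**
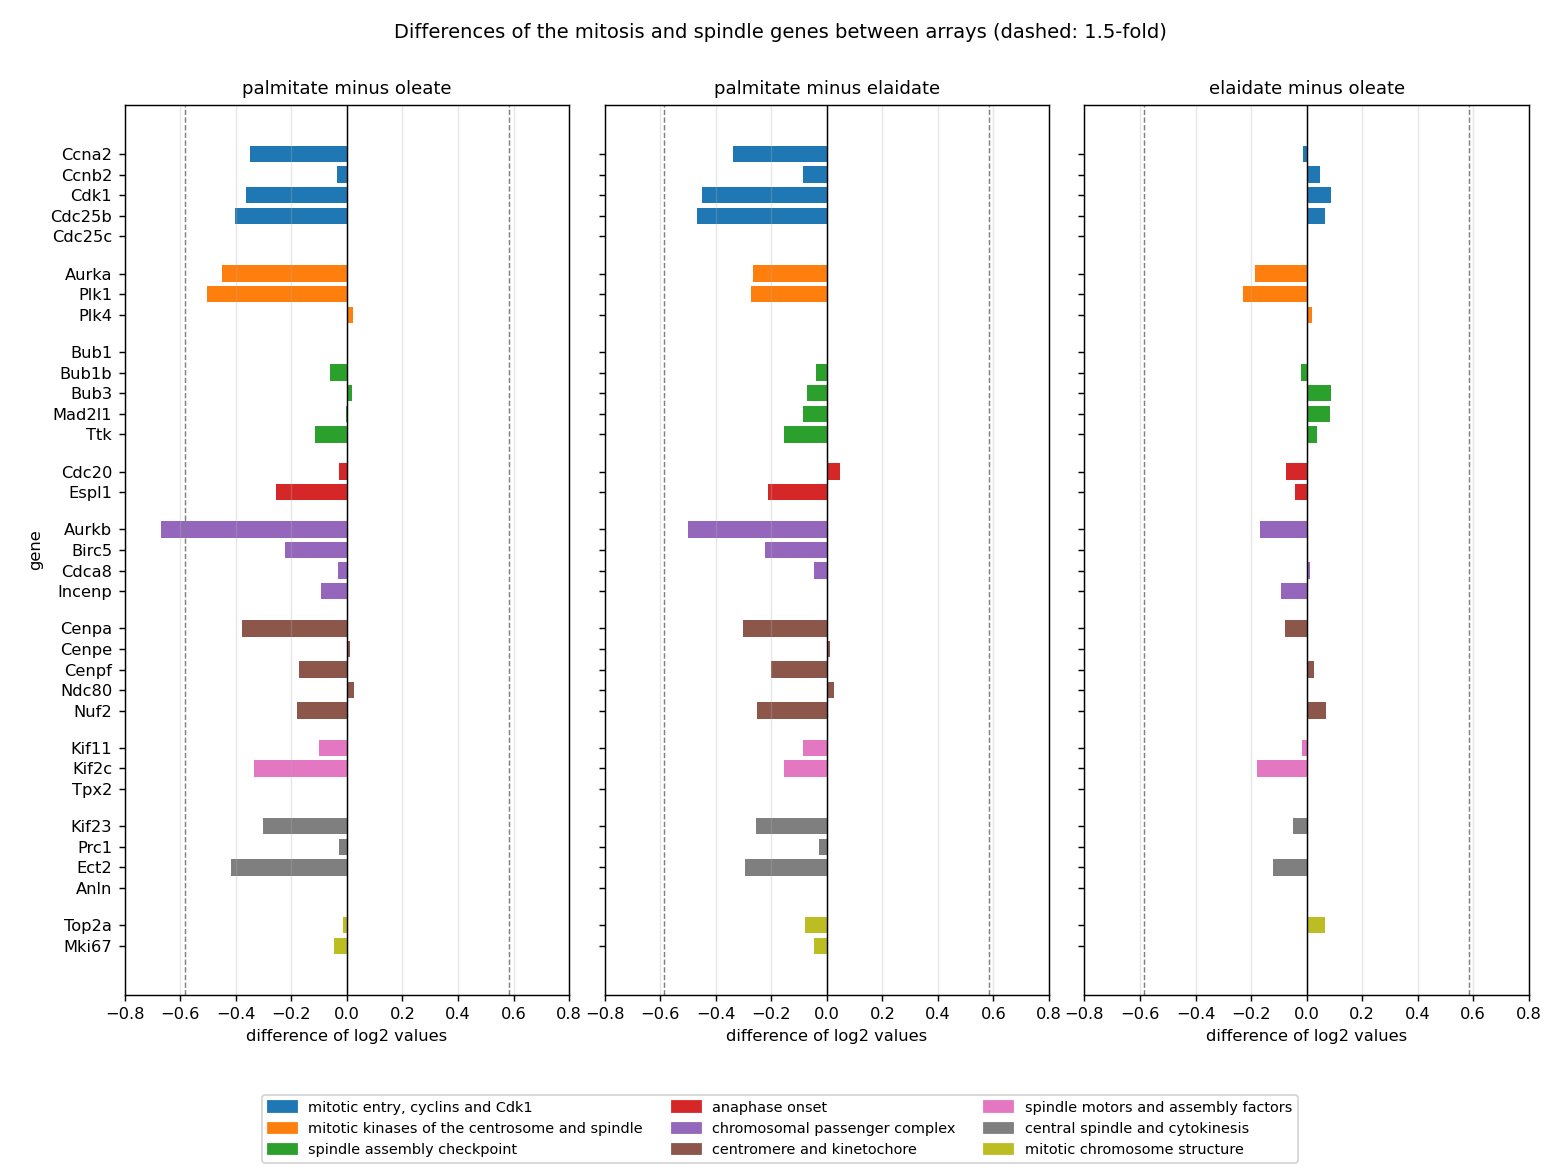
Difference of log2 values for each of the 33 genes, by role, for palmitate minus oleate, palmitate minus elaidate and elaidate minus oleate; each bar is 1 pair of single arrays and dashed lines mark 1.5-fold. Only the Aurkb bar for palmitate minus oleate, at -0.67, crosses a dashed line, and bars to the right stay at or below 0.09.

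Against elaidate, the palmitate array was again the lower one for most genes. This comparison shares the palmitate array with the one above, so they are not independent of each other. Of the 33 genes 24 were lower, 6 equal and 3 higher, with a median of -0.08, where 37.9% of all genes were lower, 34.2% equal and 27.9% higher and their median was 0. With arrays centred on their medians 32 of 33 were lower, beside 75.6% of all genes, and of the 3 higher genes Cenpe and Ndc80 changed sign. The median was -0.16 with the brightest probe set of each gene and -0.15 without the genes equal on all 3 arrays. At least 1.2-fold lower were 8 members, against 14.4% of all genes, and none was 1.5-fold lower, against 4.43%. The lowest were Aurkb at -0.50, Cdc25b at -0.47, Cdk1 at -0.45 and Ccna2 at -0.34. Plk1 at -0.27 and Aurka at -0.26 differed less here than Cdc25b and Cdk1, while against oleate the kinases Plk1 and Aurka had the lower differences. The highest was Cdc20, at 0.05.

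Between the trans and the cis isomer, elaidate minus oleate, the set was close to level. Of the 33 genes 13 were lower, 9 equal and 11 higher, with a median of 0, where 24.3% of all genes were lower, 44.1% equal and 31.5% higher. Both isomer arrays also enter the palmitate comparisons. Centring the arrays, or cyclic loess between them, gave 22 lower of 33, beside 71.7% and 65.8% of all genes. No member was 1.2-fold lower, against 1.7% of all genes, and none was 1.2-fold higher, against 3.82%. The 4 members lower than 1 standard deviation of all genes, which was 0.13, were Plk1 at -0.23, Aurka at -0.18, Kif2c at -0.18 and Aurkb at -0.17, and 6.71% of all genes were that low. The highest values, Cdk1 and Bub3 at 0.09 each and Mad2l1 at 0.08, belonged to other roles. The brighter probe set of Mad2l1 alone gave 0.16. As no replicate arrays exist, whether differences of this size separate the isomers was not testable.

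**Figure D4:**
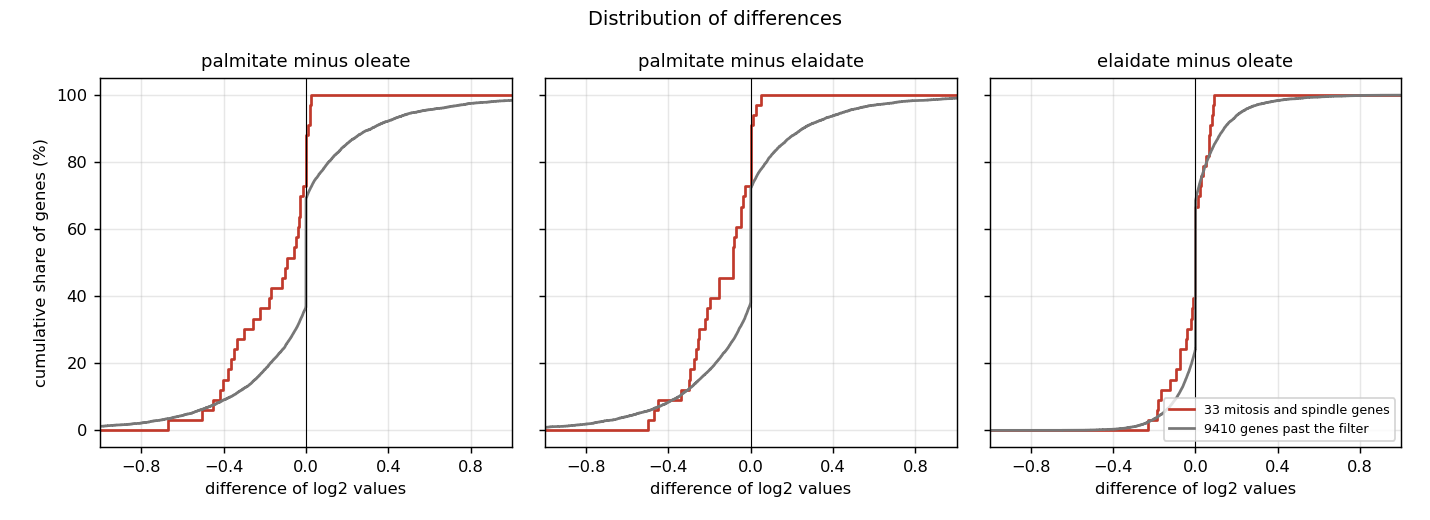
Cumulative share of genes (%) against the difference of log2 values in the 3 comparisons, for the 33 mitosis and spindle genes and for all 9410 genes past the filter. In both palmitate comparisons the curve of the set lies above that of all genes just below 0 and reaches 100% by 0.05, and in elaidate minus oleate its median lies at 0.

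Palmitate minus oleate differences were also set out by the CHR letters. Of the 21 genes whose window holds TTTGAA, 18 were lower, 1 was equal and 2 were higher, with a median of -0.10 and a range of -0.50 to 0.03. The 7 measured genes whose window does not hold it had 4 lower, 1 equal and 2 higher, with a median of -0.0022 and a range of -0.40 to 0.02. Between the same arrays 36.8% of all 9410 genes were lower. Aurkb, at -0.67, had no promoter window and is in neither group. The ranges overlap, and the difference between the groups was not tested. Plk1 and Ndc80, with a match at position 31 and at position 30, stood at opposite ends, at -0.50 and 0.03.

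Other genes of mitosis, 161 in 9 lists written with earlier results of these data known, were less one-sided between palmitate and oleate. Of the 146 past the filter 69 were lower, 41 equal and 36 higher, a share of 47.3% lower beside 36.8% of all genes. Further kinesins and spindle proteins were lower for 16 of 23 genes, with a median of -0.13. Aspm, a spindle pole protein, was 7.14 on the palmitate, 7.91 on the elaidate and 7.88 on the oleate array, a palmitate minus oleate difference of -0.74, and the chromosome-arm kinesin gene Kif22 stood at -0.56. At the other end of that list were Haus6 at 0.21 and Ckap5 at 0.01. Further centromere and kinetochore genes were level, with 9 of 27 lower, 8 higher and a median of 0. They ranged from Pmf1 at -0.60 and Cenpm at -0.58 to Mis12 at 0.25 and Spdl1, which recruits dynein to kinetochores, at 1.00, or 6.65 on the palmitate against 5.65 on both other arrays.

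The counts of the following lists stand beside 36.8% lower, 32.3% equal and 30.9% higher among all genes between the same arrays. Further cytokinesis genes had 4 of 12 lower, with Septin9 at -0.60 and Racgap1, the centralspindlin partner of Kif23, at -0.13. Rock1 stood at 0.19 and Pdcd6ip at 0.13. Condensin, cohesin and related genes had 9 of 19 lower, with the condensin subunits Ncapd2 at -0.52 and Ncaph2 at -0.38, while the cohesin release factor Wapl stood at 0.34 and the cohesin subunit Smc3 at 0.15. Other mitotic kinases and phosphatases had 12 of 17 lower. Cdc25a, the phosphatase of S phase and mitotic entry, stood at -0.60 and Nek7 at -0.28. Plk3 stood at 0.42, and Plk2, a stress-responsive relative of Plk1, at 3.16, the opposite direction to Plk1. Plk2 had values of 11.32 on the palmitate, 9.57 on the elaidate and 8.16 on the oleate array. Anaphase-promoting complex genes had 8 of 16 lower, with Anapc5 at -0.31, Anapc11 at -0.26, Cdc26 at 0.11 and Anapc16 at 0.62. Centriole genes had 1 of 11 lower, Stil at -0.06, and 5 higher, led by Cep135 at 0.55 and Cep63 at 0.29, with Cep152 equal.

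Of the regulators that bind late cell cycle promoters, Mybl2, which encodes B-Myb, was 7.86 on the palmitate, 8.57 on the elaidate and 8.59 on the oleate array. Its palmitate minus oleate difference of -0.73 was lower than that of any of the 33 members. Tfdp1, a dimer partner of E2F factors, stood at -0.55, while the MuvB subunits Lin54 at 0.38 and Lin37 at 0.02 were the highest of that list. Of its 14 genes 7 were lower, beside 36.8% of all genes. Among 7 inhibitors of mitotic entry, the checkpoint kinase gene Chek2 stood at -0.65 and Wee1, which phosphorylates Cdk1, at -0.31. The growth arrest genes Gadd45b and Gadd45a stood at 0.92 and 3.36, and Gadd45a had values of 10.19 on the palmitate, 7.26 on the elaidate and 6.83 on the oleate array. In that list of inhibitors 3 genes were lower and 4 higher, beside 36.8% and 30.9% of all genes.

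**Figure D5:**
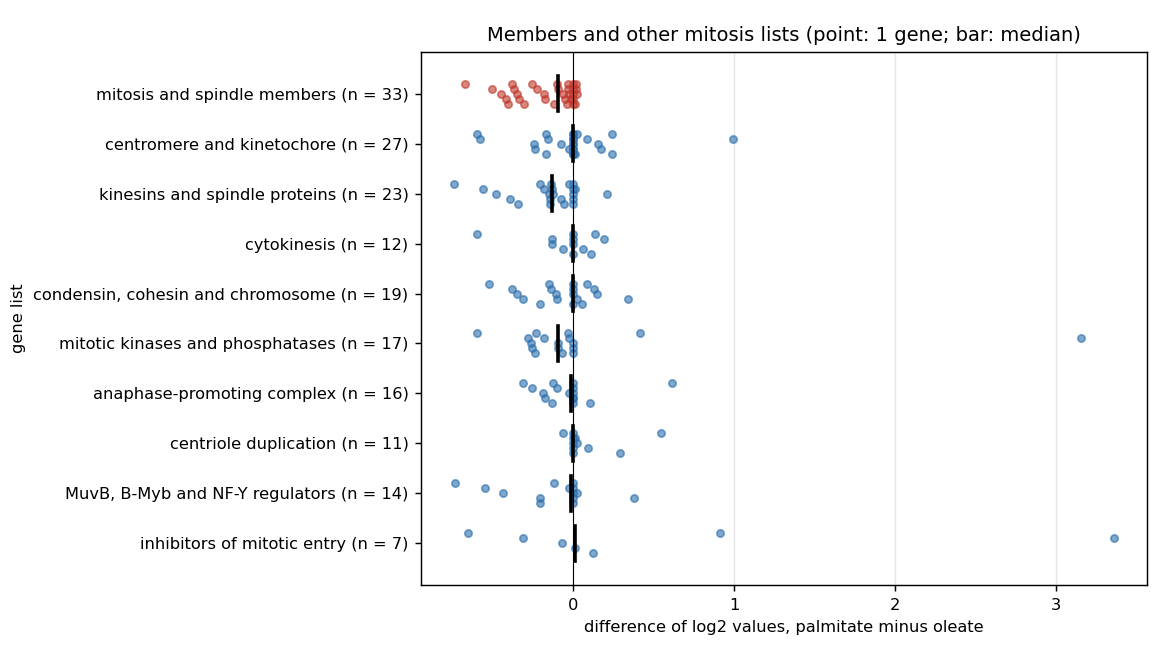
Palmitate minus oleate difference of log2 values for the 33 members (top row) and for the 9 other mitosis lists; each point is 1 gene and each black bar the median of its list. The members lie at or left of 0.03, while other lists reach 3.16 (Plk2) and 3.36 (Gadd45a).

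Macrophage markers moved in the same comparison. Of 8 markers 6 had a palmitate value below oleate and 2 were equal, beside 36.8% lower and 32.3% equal of all genes. The markers had a median of -0.29 and ran from Lyz2 at -0.83 to Cd68 and Ptprc at 0. Their part in the values of the mitosis genes was not tested.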

How the data were processed

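RNA of 3 RAW264.7 cultures, 1 per fatty acid, was labelled with an Affymetrix whole-transcript assay and measured on arrays. Deposited were log2 expression values of 35556 probe sets, for which the submitters' processing notes name RMA without a version. RMA corrects background, aligns the distributions of arrays and summarises probes by median polish. Arrays have no depth, and the number of arrays limits precision.

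Probe sets were named through the supplied platform annotation, which can be old: 21218 had 1 gene symbol, 1881 several and 12457 none. Only the first kind was used, and 21185 of them matched a RefSeq gene identifier. Probe sets of a gene were averaged, and genes were kept whose mean reached the all-gene median, 4.14. Values were called equal within 1e-06. The members and lists were chosen with earlier results of these data known. Named were all members and, in the other lists, genes at least 2-fold apart and the 2 highest and 2 lowest. The 1.2-fold limit, counts without genes equal on all arrays, the list of DNA replication genes, the restriction of printed promoters to matches in the 150 bases before the start and the sites of Plk1 and Aurka were added after seeing the data. Steps were tested on simulated data. Alternatives were 3 other filters, centring, cyclic loess (span 0.7, 3 iterations; R 4.3.3 with limma 3.58.1), the brightest probe set, a 2-fold limit and the mean of the members. Tables and plots were made with pandas 2.3.3, numpy 2.4.6 and matplotlib 3.10.9 under Python 3.11.15. Promoter windows came from RefSeq on GRCm38.p6. Protein sequences were not used here.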

Additional observations from a re-analysis of the deposited data

How the results depend on the processing

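No paired analysis was possible because each fatty acid has 1 array and the labels give no replicate numbers. The count of members at least 1.5-fold lower between palmitate and oleate, 1 gene, was 0 at a 2-fold limit and 10 at a 1.2-fold limit, and between palmitate and elaidate the count of 0 was 8 at a 1.2-fold limit. The number lower between elaidate and oleate, 13, was 22 with centred arrays and 22 after cyclic loess; deposited values that are equal are shifted apart by both. The other 64 recomputed counts, medians and means of the set stayed within 1.5 times or within 0.1 on the log2 scale. These limits are wide beside the results, as the medians of the set were -0.09, -0.08 and 0. A median could reach 0 inside the limit, and 33 members lower counts as within 1.5 times of 25. Staying within the limits therefore shows little. Palmitate minus oleate medians ran from -0.13 (arrays centred on their medians) to -0.08 (a filter at the 75th percentile, 26 members). The mean of the members in that comparison was -0.17. Palmitate minus elaidate medians ran from -0.16 (the brightest probe set) to -0.08. The promoter counts depend on the window, as TTTGAA was held by 21 genes with the 50 bases after the start and by 11 without them. Of the recomputed values of single members 5 moved by more than 0.1 and 292 did not. Most of the 292 could not have moved that far, so their number is no measure of stability. Centring shifts every gene by the same amount, -0.04 between palmitate and oleate. The brightest probe set can change only the 4 members with several probe sets. The 5 were those of Kif11 and Top2a with the brightest probe set. There elaidate minus oleate of Kif11 turned to 0.08, against -0.02 as the mean. Centring turned the sign of small differences of Plk4, Bub3, Cenpe and Ndc80. Without replicate arrays, no error of any difference can be given.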

Other observations

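Genes of DNA replication and nucleotide supply, a list added after seeing the data, were set beside the mitosis genes as the other large group of cell cycle transcripts. Between palmitate and oleate 24 of 27 replication genes were lower, 3 were equal and none was higher, with a median of -0.34. Of all 9410 genes 36.8% were lower, 32.3% equal and 30.9% higher, and their median was 0. The mitosis genes had a median of -0.09 in the same comparison. At least 1.2-fold lower were 16 of the 27 replication genes, beside 10 of the 33 mitosis genes and 14.2% of all genes. Rrm2, a subunit of ribonucleotide reductase, was 8.41 on the palmitate, 9.60 on the elaidate and 9.55 on the oleate array, and was the gene of the list furthest from 0, followed by the thymidine kinase gene Tk1 at -0.88. Against elaidate the medians were -0.33 for the replication genes and -0.08 for the mitosis genes. Between elaidate and oleate they were -0.03 and 0. The difference between the 2 groups of genes was not tested, as each fatty acid has 1 array.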
